A study of Homo sapiens with 6 samples.

Results

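The series holds 6 RNA-seq libraries, all from SU-CCS-1 cells, and 4 of them were compared here: the 2 that had received a negative control siRNA (control, labelled siNeg1) and the 2 that had received the first of the EA1 siRNAs (labelled siEA1-1, called EA1 siRNA 1). The sample labels put 2 libraries in each group. The other 2 libraries, transfected with EA1 siRNA 2, entered the model that estimated the spread between replicates and are described only where the EA1 siRNAs differed. SU-CCS-1 is an established line of clear cell sarcoma (CCS) tumor cells and carries the EWSR1::ATF1 (EA1) fusion, so every library comes from cells with the fusion gene, and 1 line from 1 tumor stands for the disease. The study asked which genes depend on EA1, and the comparison answers which transcripts of these cells were lower or higher after the siRNA, and from what level. The labels do not say whether replicates were separate cultures, so p-values measure only the spread between these libraries.

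The EA1 protein joins the activating part of EWSR1, an RNA-binding protein, to the part of ATF1 that binds DNA. ATF1 and its relatives CREB1 and CREM recognise the cyclic AMP response element, TGACGTCA, and are normally switched on by protein kinase A when cyclic AMP rises, whereas the fusion activates transcription without that signal. CCS cells also resemble melanocytes: they express MITF and SOX10, transcription factors of the pigment cell lineage, together with some of the genes for pigment.

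The control libraries held 6666976 and 7599305 counted reads and those of EA1 siRNA 1 held 6916302 and 6072151, and a gene with 3 counts in each library of a group, taken here as the floor of detection, would stand at a mean of 0.417 CPM in control and 0.460 CPM with EA1 siRNA 1. CPM is the level of a gene relative to the counts of its library. This floor covers counting error only. Log2 levels of the replicates correlated at 0.982 and 0.983 across genes, which are not independent of each other. The melanocytic label held in the control libraries for most of its markers: MITF stood at 636 and 671 CPM, SOX10 at 786 and 868 CPM and PMEL at 1397 and 1043 CPM, S100B at 28.3 and 38.6 CPM, DCT at 145 and 115 CPM and TYR at 11.5 and 12.7 CPM. TYRP1 was at 5.39 and 1.67 CPM, and MLANA was near 0, with 4 and 0 counts. Of the markers of muscle, 4 of 20 were listed in the counts and summed to between 7.59 and 10.9 CPM in the 4 libraries. Of the immune markers, 3 of 17 were listed and summed to between 18.4 and 26.0 CPM. Of the epithelial and endothelial markers, 5 of 18 were listed and summed to 21.4 and 17.6 CPM in control and 78.9 and 76.9 CPM with EA1 siRNA 1, nearly all of it ESRP1, an epithelial splicing regulator that rose (log2FC 2.20 ± 0.16 SE, adjusted p = 2.0e-06). The part of other cell types in the results below was not tested.

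After EA1 siRNA 1, 2952 of the 14571 genes tested were lower than in control (20.3%) and 2898 were higher (19.9%), at an adjusted p under 0.05 in edgeR's quasi-likelihood test. Log2FC is given throughout as EA1 siRNA 1 minus control, so a negative value is a fall, and CPM is scaled by the TMM factors of the libraries. The median log2FC of all genes tested was 0.02. With 2 libraries a group, the groups did not overlap in 72.1% of all genes tested and in 100% of the genes called. Among the genes called, 1319 fell and 1214 rose by more than 1 on the log2 scale, and 409 fell and 383 rose by more than 2. Without control replicate 2 the count of genes that rose was 1892, and without EA1 siRNA 1 replicate 2 it was 1913. The genes that fell held 33.1% and 33.8% of the counted reads in the control libraries and 18.2% in each library of EA1 siRNA 1. The genes that rose held 20.4% and 20.5% in control and 35.9% and 36.4% with EA1 siRNA 1. Since total RNA per cell was not measured, a lower level cannot be told apart from a larger share of other RNAs, nor fewer cells of a kind from less RNA per cell.

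**Figure D1:**
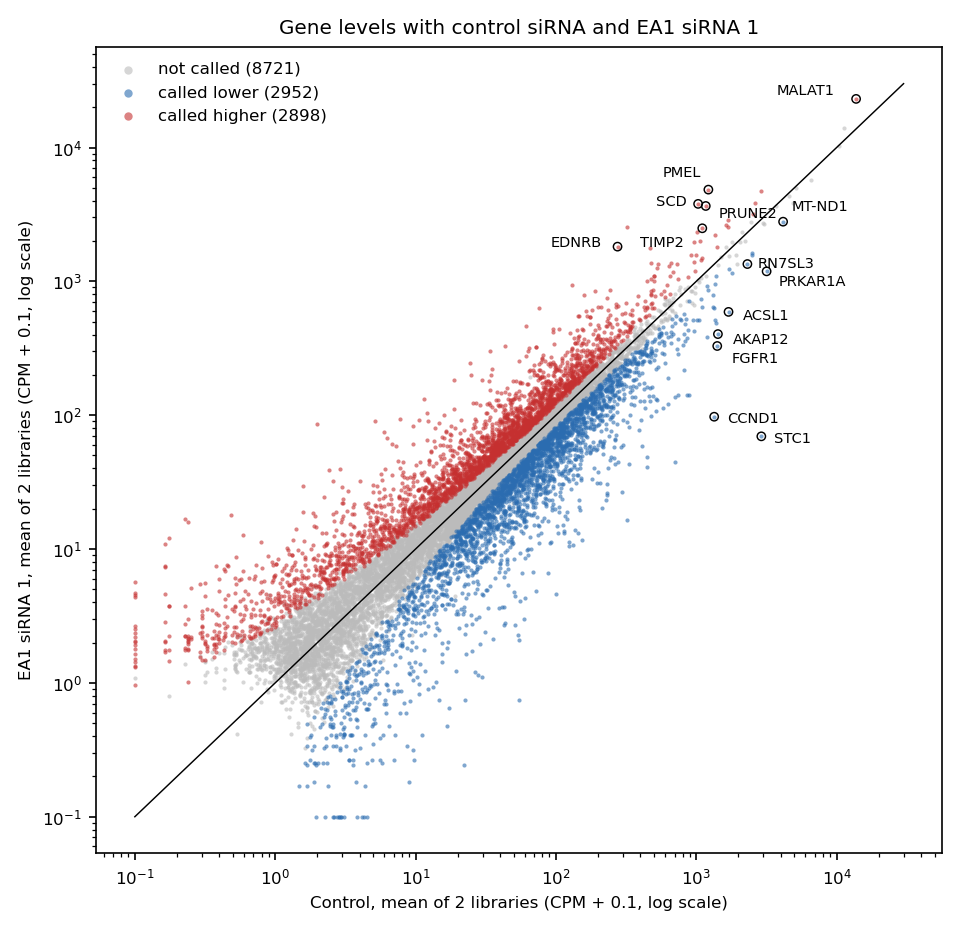
Mean level of each of the 14571 genes tested in the 2 control libraries (x axis) and the 2 libraries of EA1 siRNA 1 (y axis), in CPM plus 0.1 on log scales, with genes called lower in blue, called higher in red and not called in grey. The 14 named points are among the 8 genes of each direction with the largest change in CPM; STC1 lies farthest below the diagonal, and EDNRB and PMEL lie well above it.

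ATF1, the 3′ partner of the fusion, fell from 82.2 and 87.4 CPM in control to 21.2 and 20.3 CPM, a log2FC of -2.03 ± 0.13 (SE, adjusted p = 6.7e-07). The gene lies on hg38 at chr12:50763710-50821162 on the + strand. EWSR1, at chr22:29268009-29300525 on the + strand, was measured at 198 and 233 CPM in control and 195 and 203 CPM with EA1 siRNA 1, and its log2FC of -0.11 ± 0.11 did not pass the test (adjusted p = 0.45). The libraries of the groups did not overlap for ATF1 and overlapped for EWSR1. Counts per gene do not separate reads of the fusion from reads of the unfused ATF1 and EWSR1 alleles.

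Genes were ranked first by their loss of CPM, a ranking that by its nature takes abundant transcripts. STC1, a secreted glycoprotein hormone, stood at 2757 and 3060 CPM in control and at 39.7 and 99.1 CPM with EA1 siRNA 1 (log2FC -5.40 ± 0.43, adjusted p = 3.2e-06). CCND1, the cyclin that carries cells through G1, went from 1305 and 1379 CPM to 98.3 and 96.3 CPM (log2FC -3.79 ± 0.26, adjusted p = 1.1e-06). PRKAR1A, a regulatory subunit that keeps protein kinase A inactive until cyclic AMP binds, went from 3091 and 3253 CPM to 1172 and 1205 CPM (log2FC -1.42 ± 0.11, adjusted p = 2.9e-06). The 8 genes with the largest loss were taken only from called genes without overlap between groups, so their separation is not a result. FGFR1, a receptor for fibroblast growth factors, fell from a mean of 1411 to 329 CPM, AKAP12, a scaffold that anchors protein kinase A, from 1427 to 404 CPM, and ACSL1, which activates long-chain fatty acids, from 1698 to 591 CPM. The remaining genes of the 8 with the largest loss were MT-ND1, a mitochondrially encoded subunit of complex I, at 4861 and 3453 CPM in control and 2798 and 2783 CPM after the siRNA, and RN7SL3, an RNA of the signal recognition particle, at 2905 and 1722 CPM and 1051 and 1644 CPM. Both calls were lost without control replicate 1, with adjusted p = 0.22 for MT-ND1 and 0.35 for RN7SL3, and without EA1 siRNA 1 replicate 1 (0.075 and 0.24), and that of MT-ND1 also without EA1 siRNA 1 replicate 2 (0.070). With DESeq2 over the 4 libraries the adjusted p was 0.057 and 0.23. RN7SL3 has near-identical copies, so its counts are uncertain.

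The largest gains were ranked by CPM in the same way, which again takes abundant transcripts. MALAT1, a nuclear long noncoding RNA and the most abundant of them, rose from 14050 and 13496 CPM to 22701 and 23461 CPM (log2FC 0.74 ± 0.15, adjusted p = 0.0017). PMEL, which forms the fibrils on which melanin is laid down, rose from 1397 and 1043 CPM to 4876 and 4814 CPM (log2FC 1.99 ± 0.24, adjusted p = 5.6e-05). Genes with the largest gains were also taken only from called genes without overlap between groups. Other genes with the largest gains included SCD, which desaturates fatty acids (mean 1031 to 3792 CPM), PRUNE2 (1169 to 3657 CPM), EDNRB, the endothelin receptor of neural crest cells (275 to 1817 CPM), and TIMP2, a metalloproteinase inhibitor (1104 to 2492 CPM).

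Ordered by fold instead, the losses reached transcripts that all but disappeared. PCK1, the enzyme that commits carbon to gluconeogenesis, had 162 and 153 counts in control and 2 and 0 with EA1 siRNA 1, at least 47.7-fold lower when the siRNA libraries are set at 3 counts. KRT17, a keratin of stressed epithelia, fell from 34.0 and 74.4 CPM to 0.142 and 1.15 CPM, SLITRK3, a synaptic adhesion protein, from a mean of 27.7 to 1.04 CPM, and RERG, a small GTPase related to RAS, from 53.8 to 2.17 CPM. LINC01502 was at 86.4 and 22.2 CPM in control, a wide spread, and at 2.99 and 0.988 CPM after the siRNA. ENSG00000287001 fell from 22.5 to 0.651 CPM and was lower than with EA1 siRNA 2 (log2FC of that difference -3.14, adjusted p = 0.0095). IGHV3-33 fell from 29.6 to 1.00 CPM, but it belongs to a family of close immunoglobulin segments and its reads may come from elsewhere. In the other direction, STK32A, a serine/threonine kinase, went from 2.25 and 1.54 CPM to 82.5 and 87.9 CPM (log2FC 5.50 ± 0.38, adjusted p = 1.2e-06). CNTN1, a neural adhesion protein, MTSS1, which bends membranes at actin, and APBA1, a synaptic adaptor, rose by 4.31, 4.13 and 4.01 on the log2 scale, to means of 29.3, 89.8 and 39.0 CPM. The tetraspanins TSPAN15 and TSPAN10, OLFML2B and LZTS1 rose by between 3.62 and 3.79, and TSPAN10 differed most between its replicates, at 44.5 and 19.9 CPM.

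**Figure D2:**
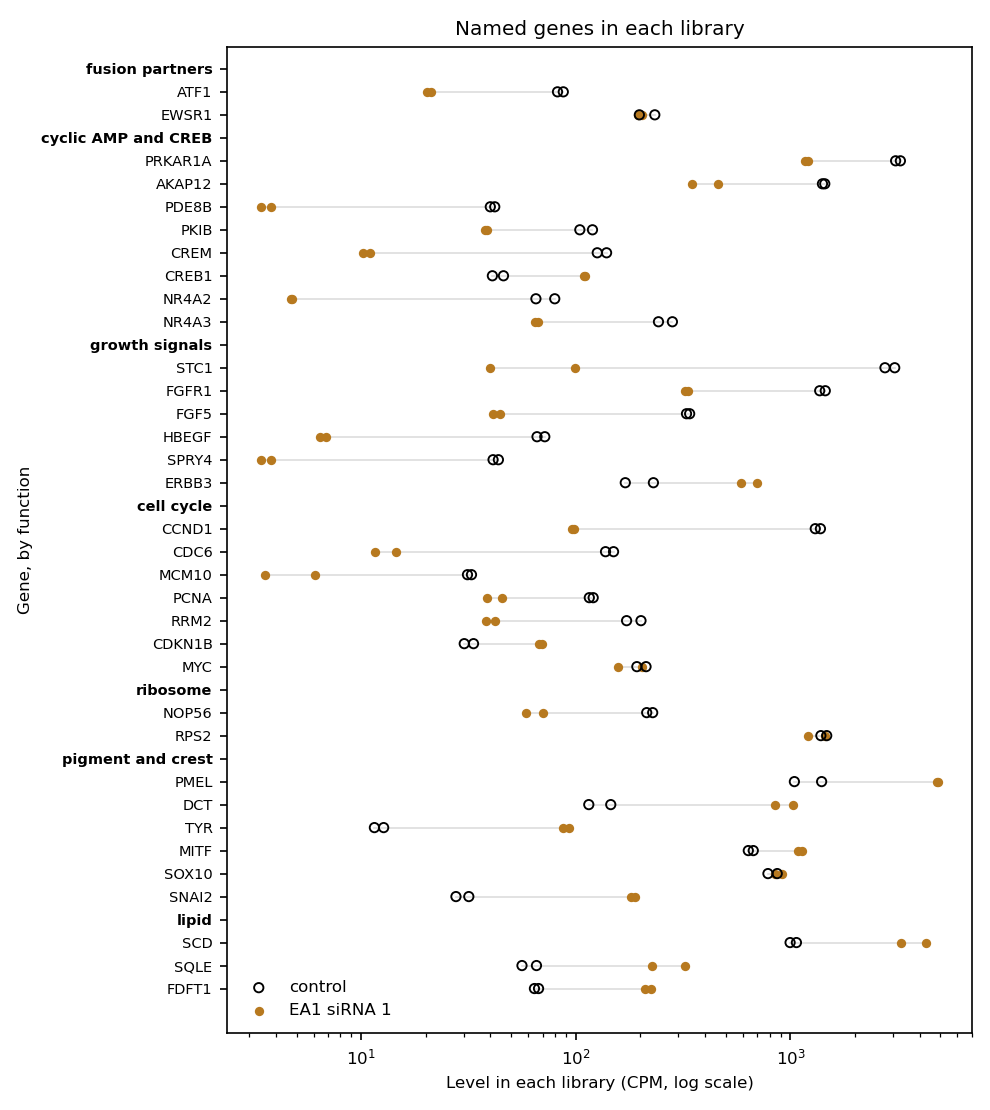
Level of 34 named genes in each library on a log scale of CPM, grouped by function, with control libraries as open circles and libraries of EA1 siRNA 1 as filled circles (replicates 1 and 2 of each). In EWSR1, SOX10, MYC and RPS2 the ranges of open and filled circles overlap, and in the others they lie apart.

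To place the fall of ATF1 in its pathway, genes of cyclic AMP signaling were examined as a group. Of 38 enzymes and anchors of the pathway tested, 16 fell and 5 rose, with a median log2FC of -0.25, and without EA1 siRNA 1 replicate 1 the count that fell was 9. They held 0.853% and 0.889% of the counted reads in control and 0.475% and 0.496% after the siRNA. Most of that loss lay in PRKAR1A (3091 and 3253 CPM to 1172 and 1205 CPM) and AKAP12 (mean 1427 to 404 CPM). Of the 38 genes 17 were not called, so the share does not describe the list as a whole. PDE8B, which degrades cyclic AMP, fell from 40.0 and 41.9 CPM to 3.41 and 3.79 CPM (log2FC -3.50 ± 0.24, adjusted p = 1.0e-06), and PKIB, an inhibitor of protein kinase A, from 120 and 104 CPM to 37.8 and 38.4 CPM (log2FC -1.55 ± 0.12, adjusted p = 2.2e-06). Another inhibitor of the kinase, PKIG, rose from 19.8 and 13.9 CPM to 36.1 and 27.0 CPM (adjusted p = 0.0064), a call lost without control replicate 2 (0.0771) and without EA1 siRNA 1 replicate 1 (0.0823). The phosphodiesterase PDE3A rose from a mean of 15.1 to 23.2 CPM (adjusted p = 0.020), a call lost without either control replicate (0.0869 and 0.0863), without EA1 siRNA 1 replicate 2 (0.209) and in DESeq2 (0.0947 over 6 libraries and 0.105 over 4). Among the factors that read the signal, CREM fell from 126 and 139 CPM to 11 and 10.2 CPM (log2FC -3.64 ± 0.13, adjusted p = 8.0e-08), whereas CREB1 rose from 40.9 and 46.0 CPM to 110 CPM in both libraries (log2FC 1.34 ± 0.11, adjusted p = 3.3e-06). CREM, CREB1 and ATF1 share a DNA-binding domain, and in none of them did the groups overlap, as in every gene called. CRTC3, a coactivator of CREB1, rose by 0.45 ± 0.10.

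Of 32 immediate early genes, which respond to signals without new protein synthesis, 15 fell and 6 rose. These were 46.9% and 18.8% of the list, beside 20.3% and 19.9% of all genes tested. NR4A2 and NR4A3, orphan nuclear receptors, fell from means of 72.5 and 262 CPM to 4.73 and 65.8 CPM, and FOSL1, a partner of JUN in AP1, from 9.50 to 0.943 CPM. EGR1, a zinc finger factor induced by growth signals, moved the other way, from 3.14 and 2.06 CPM to 13.5 and 13.8 CPM, and was 1.54 higher on the log2 scale than with EA1 siRNA 2 (adjusted p = 0.027). Of 23 genes of the circadian clock 6 rose and 5 fell, with a median log2FC of 0.12, and 2 rose without control replicate 2 or EA1 siRNA 1 replicate 1. In the full fit 26.1% of the clock list rose and 21.7% fell, near the 19.9% and 20.3% of all genes tested. The repressor NFIL3 fell from a mean of 112 to 15 CPM, and BHLHE41, another repressor of the clock, rose from 8.08 and 3.34 CPM to 42.9 and 22.9 CPM.

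Promoters were searched for the element itself because ATF1 binds it. Windows of 250 bases before to 50 bases after the start of the canonical transcript in GENCODE release 44 were read from hg38 for 14532 of the 14571 genes tested (99.7%). TGACGTCA, which reads the same on both strands, was present in 3.14% of all windows, in 3.93% of those of genes that fell, in 3.14% of those not called and in 2.35% of those that rose. Among genes that fell by more than 2 on the log2 scale it was present in 18 of 409 windows (4.4%), and among genes that rose by more than 2 in 2 of 382 (0.524%). The core of one arm, TGACG or CGTCA, which every full element also holds, was in 32.8% of all windows, 35.7% of those that fell and 32.7% of those that rose, but in 27.9% and 20.4% of those that fell and rose by more than 2. Read the other way, of the 457 genes with the element 25.4% fell and 14.9% rose, beside 20.3% and 19.9% of all genes with a window. The AP1 site, TGAGTCA or TGACTCA, is not contained in the element and was found together with it in 8 windows. It was in 2.55% of all windows, in 2.34% of those of genes that fell and in 2.73% of those that rose. Among genes that fell by more than 2 it was in 6.6% and among those that rose by more than 2 in 2.36%. Of the 370 genes with the AP1 site 18.6% fell and 21.4% rose. Median GC content of the windows was 65.7% for genes that fell and 66.7% for those that rose. A match shows the letters only and says nothing of binding.

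**Figure D3:**
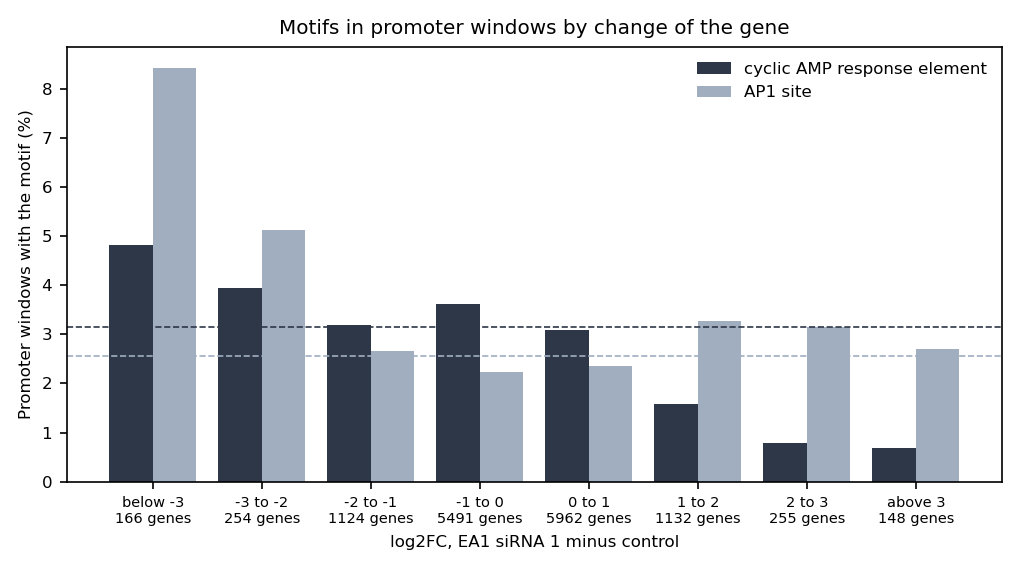
Percentage of promoter windows that hold TGACGTCA (dark bars) or the AP1 site (light bars) by log2FC of the gene, with the number of genes under each bin and dashed lines at the percentages over all windows. The element was in 4.82% of windows of genes below a log2FC of -3 (8 genes) and in 0.676% of those above 3 (1 gene), and the AP1 site was in 8.43% and 2.7%.

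The listing below does not cover every gene chosen for naming, and 16 of those covered hold the element. Of the 16, 11 fell and 3 rose, and the others were not called, EEF2 among them (log2FC -0.16, adjusted p = 0.29). Most named genes had been chosen for large changes, so these counts are not a result. Genes that were not called or fell by less than 1 are not shown. The 9 of these that fell by more than 1 on the log2 scale and the 3 that rose are shown because they give the element in its place at genes described in the text. Each line has 30 bases of the sense strand, 5′ to 3′, with hg38 coordinates, and the capitals mark the element.
AREG (chr4:74445060-74445089, + strand): cggccgggcctTGACGTCAtgggctgcggc
PCK1 (chr20:57561008-57561037, + strand): gacctgcccccTGACGTCAgtggcgagcct
NR4A2 (chr2:156332840-156332869, - strand): ggccctgctcgTGACGTCAggtcggaaata
SCG2 (chr2:223602412-223602441, - strand): gctgaacccggTGACGTCAgtgtggcagtg
EPHA2 (chr1:16156102-16156131, - strand): gcgggcgttggTGACGTCAcgcagggcatg
MCM10 (chr10:13161518-13161547, + strand): ccgcgtgcgtcTGACGTCAaggcaggggcg
EXO1 (chr1:241848139-241848168, + strand): gggatacgcgtTGACGTCAcatcctctggg
CENPW (chr6:126339992-126340021, + strand): caggctctcaaTGACGTCAggtattcccgg
PRKAR1A (chr17:68512370-68512399, + strand): gcgaggcgcatTGACGTCAgtagccgaacg
PPARGC1A (chr4:23890161-23890190, - strand): ctgcctttgagTGACGTCAcgagttagagc
MLXIP (chr12:122078688-122078717, + strand): agacgcctcggTGACGTCAcgccggggccg
IFT43 (chr14:75985755-75985784, + strand): tttccaggaagTGACGTCAggcggccgcgg
In the 9 genes that fell, the element began between 137 and 29 bases before the start. AREG, a ligand of the EGF receptor, had 21 and 17 counts in control and 0 in both libraries of EA1 siRNA 1, at least 5.79-fold lower, and SCG2, a granin of secretory vesicles, fell from 24.8 and 25.7 CPM to 2.13 and 1.15 CPM. PPARGC1A, a coactivator of mitochondrial genes that cyclic AMP induces in liver, holds the element too and rose from 307 and 388 CPM to 518 and 609 CPM (log2FC 0.70 ± 0.14, adjusted p = 0.0024). MLXIP, a partner of MLX, rose from a mean of 144 to 367 CPM, and IFT43, of the intraflagellar transport machinery, from 3.46 to 10.5 CPM.

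Across functions, 69 gene lists were counted, with 2260 tested genes in all. Beside the 20.3% and 19.9% of all genes, 26 lists exceeded the share that fell alone, 18 the share that rose alone, 17 both and 8 neither. At least 50% of the tested members fell in 13 lists and rose in 7, of which the epithelial and endothelial list had 1 tested gene, ESRP1. Shares of the counted reads are given per list, and levels of different genes are compared only per kilobase of exon scaled to the same total in each library.

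**Figure D4:**
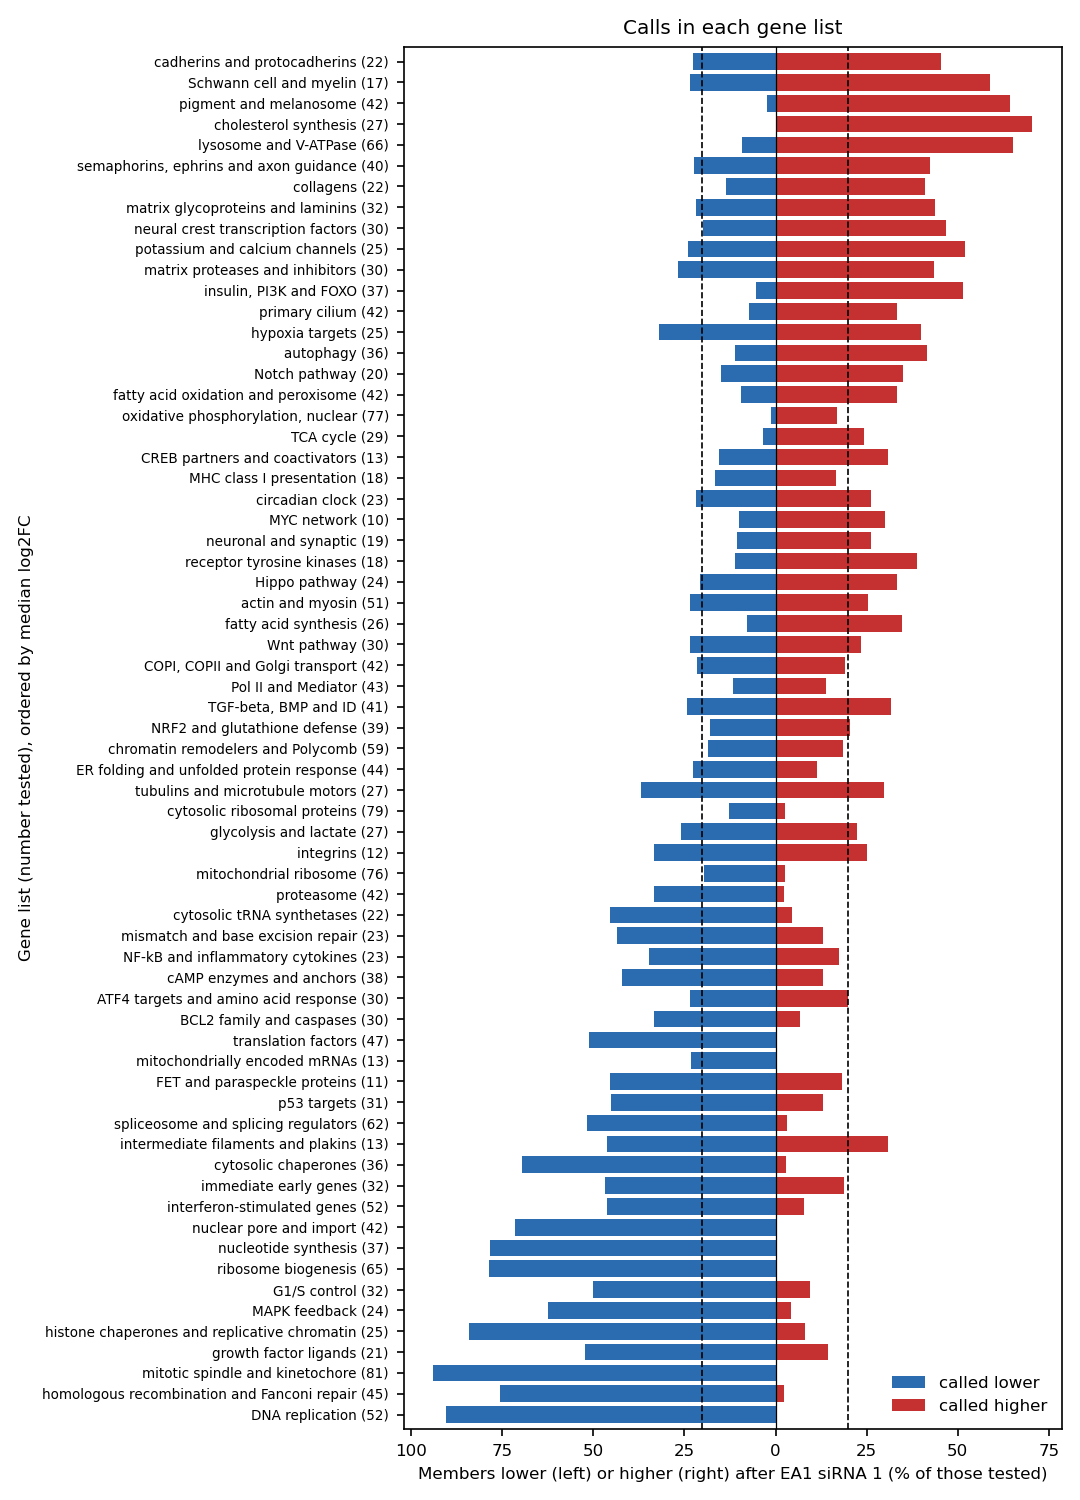
Percentage of the tested members of each of 66 gene lists that fell (blue, to the left) or rose (red, to the right) after EA1 siRNA 1, ordered by the median log2FC of the list, with the number tested in brackets; the 3 lists of other cell types are left out. Dashed lines mark the percentages over all genes tested, 20.3% and 19.9%. The lists of DNA replication, homologous recombination and mitosis stand at the bottom, and those of cadherins, myelin, pigment and cholesterol synthesis at the top.

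Genes of the cell cycle fell nearly as a whole. Of 52 genes of DNA replication 47 fell and none rose, with a median log2FC of -1.60, and of 81 genes of the mitotic spindle and kinetochore 76 fell and none rose, with a median of -1.18. The replication genes held 0.333% and 0.367% of the counted reads in control and 0.139% and 0.145% after the siRNA, and the mitotic genes 0.837% and 0.872%, and 0.428% and 0.407%. CDC6, which loads the replicative helicase, fell from 138 and 150 CPM to 11.7 and 14.5 CPM (log2FC -3.46 ± 0.21, adjusted p = 5.4e-07). MCM10, which activates the helicase, fell from 31.3 and 32.7 CPM to 3.56 and 6.09 CPM, and PCNA, the sliding clamp and the member of the highest level per kilobase, from 120 and 116 CPM to 38.5 and 45.1 CPM. The groups lay apart in all 3 genes, as they did in every gene called. In mitosis, CDCA5, which protects sister chromatid cohesion, fell by 2.16, CENPK and CENPW of the inner kinetochore by 1.89 and 1.84, and the kinase PBK by 1.77 on the log2 scale. CDC25B, the phosphatase that starts mitosis and the highest of the list per kilobase, was at 309 and 316 CPM in control and 238 and 279 CPM with EA1 siRNA 1 and did not pass the test (adjusted p = 0.13), though it did in a fit of only the 4 libraries (0.026) and in DESeq2 over them (0.041).

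Control of entry into the cycle was lower in part. Of 32 genes of G1/S control 16 fell and 3 rose. Beside CCND1, the E2F repressor E2F7 fell from a mean of 116 to 17.5 CPM, cyclin CCNE2 from 45.5 to 6.98 CPM and the phosphatase CDC25A from 74.4 to 12.6 CPM. CDKN1B, the inhibitor p27, rose from 33.4 and 30.2 CPM to 69.5 and 67.0 CPM (log2FC 1.1 ± 0.12, adjusted p = 2.8e-05). MYC, which drives growth in many tumors, stood at 192 and 212 CPM in control and at 157 and 203 CPM after the siRNA (log2FC -0.17 ± 0.15, adjusted p = 0.38). Of its network, MXD4 and MXI1, which compete with MYC for MAX, rose from means of 25.4 and 45.4 CPM to 123 and 133 CPM.

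Most genes of homologous recombination, precursor supply and chromatin assembly were also lower. Of 45 genes of homologous recombination and Fanconi repair 34 fell and 1 rose (median log2FC -1.21), of 37 of nucleotide synthesis 29 fell and none rose (-0.68), and of 25 histone chaperones and replicative chromatin proteins 21 fell and 2 rose (-0.99). The nuclease EXO1 fell from a mean of 44.9 to 8.26 CPM, the checkpoint kinase CHEK1 from 49.3 to 11 CPM and FANCA from 22.4 to 5.39 CPM, while FANCF rose from 13.2 to 23.5 CPM. Of 23 genes of mismatch and base excision repair 10 fell and 3 rose (median -0.24), and 6 fell without control replicate 2, without either replicate of EA1 siRNA 1 or in DESeq2 over 6 libraries. The glycosylase NEIL3 fell from a mean of 26.1 to 9.42 CPM, and SMUG1, another glycosylase, rose from 19.3 to 32.5 CPM, a call lost without EA1 siRNA 1 replicate 1 (adjusted p = 0.0657). RRM2, the small subunit of ribonucleotide reductase, fell from 172 and 201 CPM to 38.3 and 42.0 CPM and TYMS, thymidylate synthase, from 213 and 215 CPM to 92.3 and 90.7 CPM. CHAF1B of the assembly factor CAF-1 fell by 2.15 and the nuclear lamin LMNB1 by 1.99 on the log2 scale. Of the 2 chromatin genes that rose, 1 was H1-10, a linker histone not tied to replication, from 39.9 to 75.4 CPM. A group added after the data were seen, the 55 replication-dependent histone genes tested, had 48 that fell and none that rose, with a median log2FC of -1.33 and shares of 0.413% and 0.456% of the counted reads in control against 0.174% and 0.180%. These genes are near copies of each other and their mRNAs mostly lack a poly(A) tail, so their counts in poly(A) libraries are uncertain.

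The machinery that makes and moves RNA and protein fell in part. Of 65 genes of ribosome biogenesis 51 fell and none rose, with a median log2FC of -0.69, and their share of counted reads went from 0.630% and 0.615% to 0.375% and 0.367%. The box C/D protein NOP56 fell from 228 and 214 CPM to 70.0 and 58.5 CPM (log2FC -1.78 ± 0.11, adjusted p = 7.3e-07), RRP1B from a mean of 83.8 to 24.1 CPM, and the abundant nucleolar chaperone NPM1 from 830 to 478 CPM. Of 79 ribosomal proteins tested 10 fell and 2 rose, with a median log2FC of -0.11, and their share of counted reads was 1.97% and 1.91% in control and 1.69% and 1.86% after the siRNA. RPL5 and RPL4 fell by 0.80 and 0.74 on the log2 scale, and RPS2, the highest per kilobase, was at 1386 and 1475 CPM in control and 1212 and 1443 CPM with EA1 siRNA 1. The count of ribosomal proteins that fell ranged from 2 without EA1 siRNA 1 replicate 1 to 19 in a fit of only the 4 libraries, and was 3 without control replicate 1.

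Of 42 genes of the nuclear pore and nuclear import 30 fell and none rose (median log2FC -0.61). RANGAP1, which drives the RAN cycle, fell from 352 and 366 CPM to 115 and 125 CPM, RANBP2 of the pore's cytoplasmic face from a mean of 799 to 335 CPM, and the import adaptor KPNA2 from 865 to 375 CPM. Of 47 translation factors 24 fell and none rose (median -0.33), with 14 that fell without EA1 siRNA 1 replicate 1, and of 62 spliceosome and splicing genes 32 fell and 2 rose (median -0.37), with 21 when that library was left out. EIF1AX, which helps the ribosome find the start codon, fell from 254 to 116 CPM, whereas EEF2, the elongation factor, was at 1676 and 1772 CPM in control and 1419 and 1660 CPM after the siRNA and did not pass the test (adjusted p = 0.29). Of 36 cytosolic chaperones 25 fell and 1 rose (median -0.48), with 15 without EA1 siRNA 1 replicate 1 and 16 without its replicate 2. The chaperonin subunit CCT2 fell from 233 to 116 CPM, while HSPB1, a small heat shock protein, rose from 473 to 802 CPM. Of 43 genes of RNA polymerase II and Mediator 5 fell and 6 rose, with a median of -0.02. NONO, a paraspeckle protein, fell from 758 and 729 CPM to 317 and 259 CPM, and NEAT1, the RNA on which paraspeckles form, rose from 597 and 849 CPM to 1351 and 1343 CPM.

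**Figure D5:**
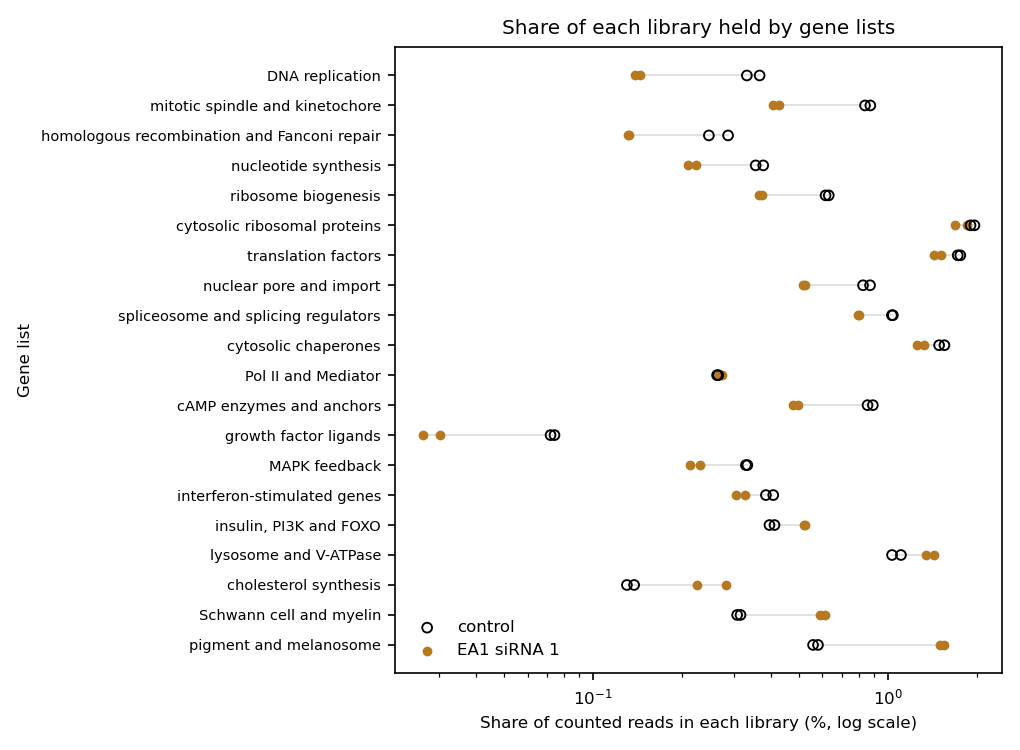
Percentage of the counted reads held by 20 gene lists in each library (log axis), with control as open and EA1 siRNA 1 as filled circles. Replication genes went from 0.333% and 0.367% to 0.139% and 0.145%, the pigment list went from 0.579% and 0.558% to 1.55% and 1.5%, and the 4 points of RNA polymerase II and Mediator lie close together between 0.263% and 0.275%.

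Transcripts of growth factor ligands and of the feedback genes that ERK activity induces fell in part. Of 21 growth factor ligands 11 fell and 3 rose, with a median log2FC of -1.1. With at least 10 counts demanded in every library, 7 fell. FGF5, the ligand of the highest level per kilobase, fell from 328 and 339 CPM to 44.2 and 41.3 CPM (log2FC -2.96 ± 0.25, adjusted p = 4.4e-06), FGF9 from 41.8 and 48.6 CPM to 4.98 and 5.60 CPM, and HBEGF, an EGF receptor ligand, from 71.7 and 66.0 CPM to 6.83 and 6.42 CPM. The groups did not overlap in these 3, as in every gene called. Of 24 genes of MAPK feedback 15 fell and 1 rose (median -0.73), with 9 that fell without EA1 siRNA 1 replicate 1. SPRY4, which blocks signaling from receptors to RAS, fell from a mean of 42.4 to 3.60 CPM, the ETS factors ETV4 and ETV5 from 14.7 and 118 to 2.38 and 33.8 CPM, and DUSP4, a phosphatase of ERK, from 1352 to 514 CPM. The strand setting of the counting is not known, and SPRY4-AS1, antisense to SPRY4 and chosen for naming after its values were seen, fell too, from 26 and 46 counts to 2 and 3. Of 18 receptor tyrosine kinases 7 rose (38.9%), 2 fell (11.1%) and 9 were not called. NTRK2, the receptor of the neurotrophin BDNF, fell with FGFR1, from 174 and 252 CPM to 12.2 and 28.0 CPM, whereas ERBB3, a neuregulin receptor of the neural crest, rose from 170 and 230 CPM to 586 and 697 CPM and MET, the receptor of hepatocyte growth factor, from 149 and 141 CPM to 423 and 360 CPM. The rise of ERBB3 was larger than with EA1 siRNA 2 (difference of 1.30 on the log2 scale, adjusted p = 0.0025).

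Of 37 genes of insulin, PI3K and FOXO signaling 19 rose and 2 fell, with a median log2FC of 0.33. IRS1, the docking protein of the insulin receptor, rose from 82.2 and 76.6 CPM to 253 and 284 CPM (log2FC 1.76 ± 0.11, adjusted p = 7.3e-07), and GRB10, which restrains that receptor, from a mean of 34.7 to 82.1 CPM. RHEB, the GTPase that activates mTORC1, fell from 282 to 131 CPM. In the TGF-beta and BMP list 13 of 41 rose and 10 fell: the ligand BMP2 fell from 121 and 106 CPM to 12.1 and 14.0 CPM and the activin antagonist FST from a mean of 43.3 to 2.70 CPM, while ID2, a target of BMP signals, rose from 64.4 to 316 CPM and the receptor TGFBR2 from 43.6 to 149 CPM. Of 30 genes of the Wnt pathway 7 fell and 7 rose (23.3% each), near the 20.3% and 19.9% of all genes tested, with a median log2FC of 0.05. FZD3, a Wnt receptor, fell from 526 to 129 CPM.

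Of 52 interferon-stimulated genes 24 fell and 4 rose, with a median log2FC of -0.54. CMPK2, a mitochondrial nucleotide kinase, fell from 198 and 216 CPM to 33.0 and 29.0 CPM (log2FC -2.74 ± 0.16, adjusted p = 3.4e-07), XAF1 from a mean of 21.6 to 3.15 CPM and OAS2, a sensor of double-stranded RNA, from 62.7 to 9.98 CPM. STAT2, which carries the interferon signal to the nucleus, rose from 157 to 308 CPM. Of 23 genes of NF-kB and inflammatory cytokines 8 fell and 4 rose. The cytokine LIF fell from 15.6 and 12.2 CPM to 0.995 and 0.823 CPM and TNFAIP3, which shuts off NF-kB, from 299 and 287 CPM to 63.0 and 52.4 CPM. Without control replicate 2 or EA1 siRNA 1 replicate 2, 5 genes of the list fell, and with at least 10 counts demanded in every library 4 fell. Of 30 genes of the BCL2 family and caspases 10 fell and 2 rose, with a median log2FC of -0.32. The anti-apoptotic BCL2 fell from a mean of 123 to 46.3 CPM and the pro-apoptotic BID from 26.7 to 10.6 CPM. The 2 that rose were the pro-apoptotic BMF and BBC3, from 18.5 and 5.54 CPM to 182 and 36.3 CPM.

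Genes of pigment rose. Of 42 pigment and melanosome genes 27 rose and 1 fell, with a median log2FC of 0.80, and they held 0.579% and 0.558% of the counted reads in control and 1.55% and 1.5% after the siRNA. TYR, which makes the first step of melanin, rose from 11.5 and 12.7 CPM to 93.4 and 86.8 CPM (log2FC 2.89 ± 0.15, adjusted p = 2.6e-07). DCT, a later enzyme of the same path, rose from 145 and 115 CPM to 1029 and 851 CPM (log2FC 2.85 ± 0.29, adjusted p = 1.6e-05), and TYRP1 from 5.39 and 1.67 CPM to 16.6 and 12.5 CPM. TRPM1, a cation channel of melanocytes, had 1 and 0 counts in control and 84 and 73 with EA1 siRNA 1, at least 28.7-fold higher. MITF, the regulator of these genes, rose less, from 636 and 671 CPM to 1083 and 1126 CPM (log2FC 0.76 ± 0.10, adjusted p = 0.00015), and SOX10 was at 786 and 868 CPM and 847 and 918 CPM, groups that overlapped (log2FC 0.09 ± 0.11, adjusted p = 0.52). MLANA rose from 4 and 0 counts to 16 and 11, a call lost without control replicate 2 and without either replicate of EA1 siRNA 1 (adjusted p = 0.17, 0.13 and 0.076) and in DESeq2 over the 4 libraries (0.092). MC1R, the receptor of melanocortin, went the other way, from 21 and 20 counts to 5 and 5, and that call was lost without any 1 of the 4 libraries (adjusted p from 0.090 to 0.19) and in DESeq2 (0.12 over 6 libraries).

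Other genes of the neural crest and its glia were called in both directions, more of them higher. Of 30 neural crest transcription factors and partners 14 rose and 6 fell, and of 17 Schwann cell and myelin genes 10 rose and 4 fell (medians of 0.46 and 0.82). SNAI2, a factor of migrating crest cells, rose from 31.7 and 27.6 CPM to 189 and 180 CPM, and S100B, a calcium sensor of glia and melanocytes, from 28.3 and 38.6 CPM to 161 and 199 CPM. The groups did not overlap in either, as in every gene called. RUNX2, a factor of bone, fell from 122 and 127 CPM to 10.5 and 11.7 CPM, and TFAP2C from a mean of 15.3 to 1.34 CPM. CRYAB, a small heat shock protein and the highest of the myelin list per kilobase, fell from 1269 and 1172 CPM to 868 and 851 CPM.

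Lysosome and sterol genes rose. Of 66 lysosome and V-ATPase genes 43 rose and 6 fell, with a median log2FC of 0.54, and the count that rose was 28 without control replicate 2. PSAP, the precursor of sphingolipid activators and the highest per kilobase, rose from 1085 and 1038 CPM to 1940 and 2065 CPM (log2FC 0.92 ± 0.14, adjusted p = 0.00038), the ceramidase ASAH1 from 253 and 218 CPM to 634 and 580 CPM, and the pump subunit ATP6V1B2 from 99.4 and 86.4 CPM to 284 and 258 CPM. CTSZ, a cathepsin, fell from a mean of 485 to 293 CPM. Of 27 genes of cholesterol synthesis 19 rose and none fell, with a median of 0.72. SQLE, the first oxygenation step, rose from 56.1 and 65.6 CPM to 227 and 323 CPM (log2FC 2.17 ± 0.16, adjusted p = 1.6e-06), DHCR7 from 10.8 and 14.7 CPM to 43.9 and 63.9 CPM and FDFT1, which makes squalene, from 67.1 and 64.2 CPM to 209 and 224 CPM. Of 42 genes of fatty acid oxidation and the peroxisome 14 rose and 4 fell, with 5 that rose without control replicate 2, 7 without EA1 siRNA 1 replicate 1 and 8 without control replicate 1. CPT1A, which carries fatty acids into mitochondria, fell from 443 and 418 CPM to 106 and 121 CPM, the reverse of most called genes of its list.

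In energy metabolism, of 77 nuclear genes of oxidative phosphorylation 13 rose and 1 fell, with a median log2FC of 0.20, and 61 of the 77 lay above 0. The 13 that rose were 16.9% of the list, beside 19.9% of all genes tested. The count that rose was 7 with DESeq2 over 6 libraries, and 24 with the replicate number as a block or in a fit of only the 4 libraries. It was lower without control replicate 2 and without either replicate of EA1 siRNA 1. Of 27 genes of glycolysis 7 fell and 6 rose, with 4 that fell without control replicate 2 or EA1 siRNA 1 replicate 1. In the full fit 25.9% of the glycolysis list fell and 22.2% rose, beside 20.3% and 19.9% of all genes tested. The glucose transporter SLC2A3 fell from 244 and 226 CPM to 36.7 and 44.3 CPM and the hexokinase HK2 from 154 and 131 CPM to 59.7 and 67.7 CPM. GAPDH, the most abundant of the path per kilobase, was at 3195 and 2894 CPM and 2620 and 2702 CPM (log2FC -0.19 ± 0.12, adjusted p = 0.21). MPC1, which brings pyruvate into mitochondria, fell from 248 and 241 CPM to 112 and 102 CPM and was 1.01 lower on the log2 scale than with EA1 siRNA 2 (adjusted p = 0.0011). CTH, which makes cysteine, fell from 289 and 303 CPM to 24.7 and 28.8 CPM (log2FC -3.47 ± 0.12, adjusted p = 7.0e-08), while VLDLR, a lipoprotein receptor of the same amino acid response list, rose from 36.5 and 33.0 CPM to 211 and 228 CPM. Of 39 genes of NRF2 and glutathione defense 8 rose and 7 fell, with a median log2FC of -0.03. These were 20.5% and 17.9% of the list, near the shares of all genes tested. The iron store FTH1 and the glutathione transferase GSTP1 rose from means of 961 and 498 CPM to 1963 and 1101 CPM.

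On the surface and in the cytoskeleton, each list described held called genes of both directions. Genes of both directions were named by rule, so opposed members in the text are not a result. Over all genes tested 20.3% fell and 19.9% rose. Of 32 matrix glycoproteins and laminins 14 rose and 7 fell. Of 13 intermediate filaments and plakins 6 fell and 4 rose, and of 27 tubulins and microtubule motors 10 fell and 8 rose. Of 40 semaphorins, ephrins and other guidance genes 17 rose and 9 fell. SEMA3C and SEMA5A rose from means of 6.65 and 43.3 CPM to 60.9 and 327 CPM, while the receptor EPHA2 fell from 45.7 and 33.0 CPM to 3.98 and 3.13 CPM and its family's ligand EFNB2 from 72.7 and 78.9 CPM to 13.8 and 15.5 CPM. Of 22 cadherins, protocadherins and catenins 10 rose and 5 fell: CDH7, a cadherin of migrating crest cells, rose from 10.8 and 11.8 CPM to 120 and 143 CPM (log2FC 3.53 ± 0.16, adjusted p = 1.2e-07), and CDH11 and the catenin CTNNA1 fell from means of 54.7 and 1006 CPM to 19.4 and 510 CPM. Of 22 collagens 9 rose and 3 fell, with a median of 0.49, and 5 rose without control replicate 2. COL16A1 rose from 1.95 and 2.44 CPM to 8.82 and 8.89 CPM. COL5A1 fell from 400 and 489 CPM to 35.8 and 46.4 CPM, whereas COL11A1, the highest collagen per kilobase, was at 907 and 945 CPM and 788 and 904 CPM and did not pass the test (adjusted p = 0.39). TGFBI, a matrix protein that binds integrins, fell from 1281 and 1502 CPM to 387 and 591 CPM, and LAMA4, a laminin chain of vessel and nerve basement membranes, rose from 13.0 and 13.9 CPM to 51.9 and 75.8 CPM. The intermediate filament VIM and the lamin LMNA rose from means of 533 and 500 CPM to 1338 and 1102 CPM, and the plakin EPPK1 fell from 855 to 142 CPM. Among tubulins TUBB and TUBA1B fell from 1348 and 1313 CPM to 633 and 648 CPM, and TUBA1A rose from 183 to 406 CPM, with the reservation that tubulin genes are close copies and share reads.

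Some genes were found almost only on one side. With at most 3 counts in each library of one condition and a call in the test, 108 genes were near 0 in control and 86 near 0 with EA1 siRNA 1. The potassium channel KCNJ13 had 0 and 2 counts in control and 122 and 96 with EA1 siRNA 1, at least 39.7-fold higher. PTGS2, the inducible cyclooxygenase, had 41 and 37 counts in control and 0 and 2 after the siRNA, at least 11.8-fold lower. KCND2, another potassium channel, had 18 in each control library and 0 in both others, at least 5.44-fold lower. Among classes of genes, 22.5% of 12042 protein-coding genes fell and 21.4% rose, and of 1617 long noncoding RNAs 9.89% fell and 15.5% rose. Their median control levels were 34.8 and 2.67 CPM, so the classes are not compared at like levels. Whether low counts account for the fewer calls was not tested. The long noncoding RNAs held 2.92% and 3.10% of the counted reads in control and 4.22% and 4.19% after the siRNA, largely through MALAT1. With genes cut into 5 equal bins by mean expression, the share that fell went from 10.7% in the lowest to 26.6% in the highest bin and the share that rose from 11.5% to 28.8%.

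Between EA1 siRNA 1 and EA1 siRNA 2, which share the control and are compared here directly, 326 genes differed (2.24%), of which 210 were lower and 116 higher with EA1 siRNA 1. The lists with the most genes that differed were mitosis with 23 of 81, the replication-dependent histones with 7 of 55 and the cytosolic chaperones with 4 of 36, all of them lower with EA1 siRNA 1, and insulin, PI3K and FOXO signaling with 5 of 37 and immediate early genes with 4 of 32, all of them higher. The genes named here had mostly been chosen for their change from control in the same libraries of EA1 siRNA 1. Named genes that were lower than with EA1 siRNA 2 included CREM (difference of -0.98 on the log2 scale), EME1, a nuclease subunit of recombination (-1.06), CDC25A (-1.08), RRM2 (-0.84), CCT2 (-0.48), PBK (-0.71), LMNB1 (-0.81), TYMS (-0.58), RPL5 (-0.66), NONO (-1.08) and CMPK2 (-1.01), and named genes that were higher included TGFBR2 (1.11), VLDLR (1.01), IRS1 (0.63), GRB10 (0.68) and BMF (0.57). ATF1 itself did not pass this test (difference of -0.09, adjusted p = 0.82). The total of 326 was 33 without EA1 siRNA 1 replicate 2 and 85 without its replicate 1, 186 without control replicate 1 and 206 without control replicate 2, and 853 with the replicate number as a block.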

How the data were processed

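Gene levels were measured by stranded mRNA-seq in 6 libraries of SU-CCS-1 cells, 2 for each siRNA. The authors deposited raw counts per gene, made by aligning reads to hg38 with BWA-MEM, which does not split reads across introns, and counting with featureCounts (version 1.6.3). The annotation, strand setting and filter are not given in the sources used here. The table held 18118 genes, of which 18063 were found in GENCODE release 44 for positions, exon lengths and starts.

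Counts were tested with edgeR 4.0.16 in R 4.3.3: genes passing filterByExpr (minimum count 10, minimum total 15), TMM factors, quasi-likelihood fits of the 6 libraries as 3 conditions, and Benjamini-Hochberg adjustment over 14571 genes, called at an adjusted p under 0.05. The script was tested on simulated counts. SE is log2FC divided by the root of F. DESeq2 1.42.0, other filters and size factors, a replicate block, only the 4 libraries, and each library left out were alternatives. Replicate numbers were not taken as pairing. The libraries of EA1 siRNA 2 shared the estimate of spread.

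Gene lists are described by counts and medians, without a set test. Named genes were the fusion partners, the 8 called genes of each direction with the largest change in CPM, the 8 with the largest log2FC among those of at least 20 CPM in the higher condition (both without overlap between groups), and, of lists described, up to 4 called members in the main direction, up to 2 in the other and the member of the highest level. Some genes this rule chose are not reported here. The comparison, members and lists were chosen with earlier results of these data known.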

Additional observations from a re-analysis of the deposited data

Results flagged for a closer look

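Of the 171 genes named in the report, 20 differed between EA1 siRNA 1 and EA1 siRNA 2 in edgeR's quasi-likelihood test, beside 2.24% of all genes tested. Most named genes had been chosen for their change from control in the same libraries of EA1 siRNA 1. Their share therefore cannot be compared with that of all genes. All values are log2 differences, EA1 siRNA 1 minus EA1 siRNA 2. The 13 lower with EA1 siRNA 1 were ENSG00000287001 (-3.14), CDC25A (-1.08), NONO (-1.08), EME1 (-1.06), MPC1 (-1.01), CMPK2 (-1.01), CREM (-0.98), RRM2 (-0.84), LMNB1 (-0.81), PBK (-0.71), RPL5 (-0.66), TYMS (-0.58) and CCT2 (-0.48). The 7 higher were EGR1 (1.54), ERBB3 (1.30), TGFBR2 (1.11), VLDLR (1.01), GRB10 (0.68), IRS1 (0.63) and BMF (0.57). No group had enough libraries for a test of single outlying samples, and the cause of these differences was not tested.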

How the results depend on the processing

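The 2952 genes that fell stayed within 1.5 times that count under every alternative run, from 2103 without EA1 siRNA 1 replicate 1 to 3344 with only the 4 libraries. The 2898 that rose numbered 1892 to 2168 when 1 library was left out, 2160 and 2116 with DESeq2 over 6 and over 4 libraries, and 3220 with the replicate number as a block. The 326 genes that differed between the EA1 siRNAs numbered 33 to 206 when 1 library was left out and 853 with the replicate block. Deviations between the replicates of control and of EA1 siRNA 1 correlated at 0.13, a value that leaves out EA1 siRNA 2. Pairing by replicate number was not assumed and was not tested. The block changed 1 call among the 171 named genes, CDC25B. Of these genes 161 kept their direction and call under all alternatives. MYC (-0.39 to 0.0036) and RPS2 (-0.26 to 0.0145), neither of them called, changed sign without EA1 siRNA 1 replicate 1. Of 66 lists, 32 had a count of called members that moved by more than 1.5 times under at least 1 alternative. Medians of lists moved beyond the spread between libraries in 127 of 726 comparisons, by up to 0.559. Per kilobase of exon, the change in share had another sign in 6 lists, whose shares are not printed. With 2 libraries a group, 1 library can decide a call, and genes near the floor of 3 counts have only bounds.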
